A study of Mus musculus with 5 samples.

Results

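Expression of 52 genes of the WNT pathway was described in 5 cerebellar tumours of Math1-Cre;Gli2A mice, out of 17739 genes measured by strand-specific mRNA sequencing. The members were all genes of the table whose symbol names a WNT ligand (Wnt), a frizzled receptor (Fzd), Lrp5 or Lrp6, a TCF/LEF factor, Axin1, Axin2, Ctnnb1, Apc, Lgr4 to Lgr6, an R-spondin (Rspo), Rnf43, Znrf3, Nkd1, Nkd2, a dishevelled (Dvl), Porcn or Wls. Wnt1, Wnt8a and Wnt8b, whose symbols follow the same pattern, were not among those 17739 genes and so were not analysed here. The rule uses gene symbols and no measured value.

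All 5 samples, labelled medulloblastoma, belonged to 1 group: Math1-Cre;Gli2A mice, made by crossing Math1-Cre with R26;Gli2A mice, given a doxycycline (DOX) diet from embryonic day 0, in which GLI2 was active according to the labels. Math1 (Atoh1) regulatory sequence drives Cre in granule neuron progenitors, so the transgene acts in that lineage. RNA came from papain-dissociated tumour cells of the cerebellum, and the labels name no sort. Libraries carry the tumour numbers 1, 5, 8, 14 and 15. The labels do not say that each number is a separate animal, so SDs and p-values cover only differences among these 5 samples, which may partly be technical. There was no untreated, wild-type or other-subgroup sample, so no level could be compared between conditions.

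WNT ligands are secreted glycoproteins that bind a frizzled receptor together with the co-receptor LRP5 or LRP6. Receptor engagement recruits dishevelled and axin to the membrane and stops the destruction complex, built on AXIN and APC, from degrading beta-catenin, which then enters the nucleus and acts with TCF/LEF factors. In the cerebellum WNT signals pattern the midbrain-hindbrain region from which it forms and act on granule cells, and in human medulloblastoma a WNT-driven subgroup is separate from the SHH-driven one.

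Levels are the authors' deposited log2 values, read here as regularised-log values; they correct for library size and not for transcript length. Such values compare tumours at 1 gene and give no order between genes. For orders between genes, log2 of the gene's exon length in kilobases (kb) was subtracted, and those values are called per kb. Read counts were not used, so depth is unknown. Column medians lay between 8.51 and 8.58, and 0 genes over a mean of 5 had identical values in any pair of libraries.

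The 5 listed markers of granule neuron progenitors, the lineage in which Math1 drives Cre, had means between 8.62 and 15.08. Zic1, a granule progenitor transcription factor, averaged 15.08 ± 0.05 (SD, n = 5) and Atoh1 8.62 ± 0.67. Atoh1 ranged 2.81-fold between tumours, lowest in tumour 1 and highest in tumour 15. Other cells' markers were also present and were not even between tumours. In tumour 5, 6 of 6 oligodendrocyte markers, 6 of 6 microglia and macrophage markers, 5 of 5 choroid plexus markers and 5 of 6 endothelial markers were at their highest. In tumour 1, 6 of 6 oligodendrocyte and 6 of 6 immediate early genes were at their lowest, and 4 of 5 oligodendrocyte precursor markers at their highest. In tumour 15, 4 of 6 pericyte and fibroblast markers were at their highest and 6 of 6 microglia and macrophage markers at their lowest. Among the listed markers of these cells the lowest mean, of a choroid plexus marker, was 5.04. The lowest value of any gene was 0.33, so a value above 0 does not show that a cell type was present. In bulk RNA, fewer cells of a type and less RNA per cell cannot be told apart.

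The WNT pathway was represented from secretion to nucleus, with ligands low and the intracellular core high. Of the 52 members, 40 (76.9%) had a mean of at least 5, against 77.2% of all genes, and the 12 below 5 were 8 ligands and 4 R-spondins. The median over members was 8.05, 7.89, 8.06, 7.90 and 8.29 in tumours 1, 5, 8, 14 and 15 (8.04 ± 0.16), and the median of all genes 8.54 ± 0.02. Per kb the median member stood at 5.81 and the median gene at 6.48. Per kb the median gene stood at 9.29 among the 6 cytoplasmic genes (12.06 ± 0.07 uncorrected), 8.02 for Porcn and Wls (10.39 ± 0.15), 7.12 among the 3 feedback genes (9.59 ± 0.13) and 6.97 for the 2 co-receptors (10.50 ± 0.05). It stood at 6.37 among the 4 TCF/LEF factors (8.64 ± 0.34), 5.87 among the 10 frizzleds (7.68 ± 0.16), 3.29 among the 9 genes of the R-spondin system (6.01 ± 0.21) and 2.87 among the 16 ligands (4.59 ± 0.06). In what follows, 5 values in a row are those of tumours 1, 5, 8, 14 and 15.

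**Figure D1:**
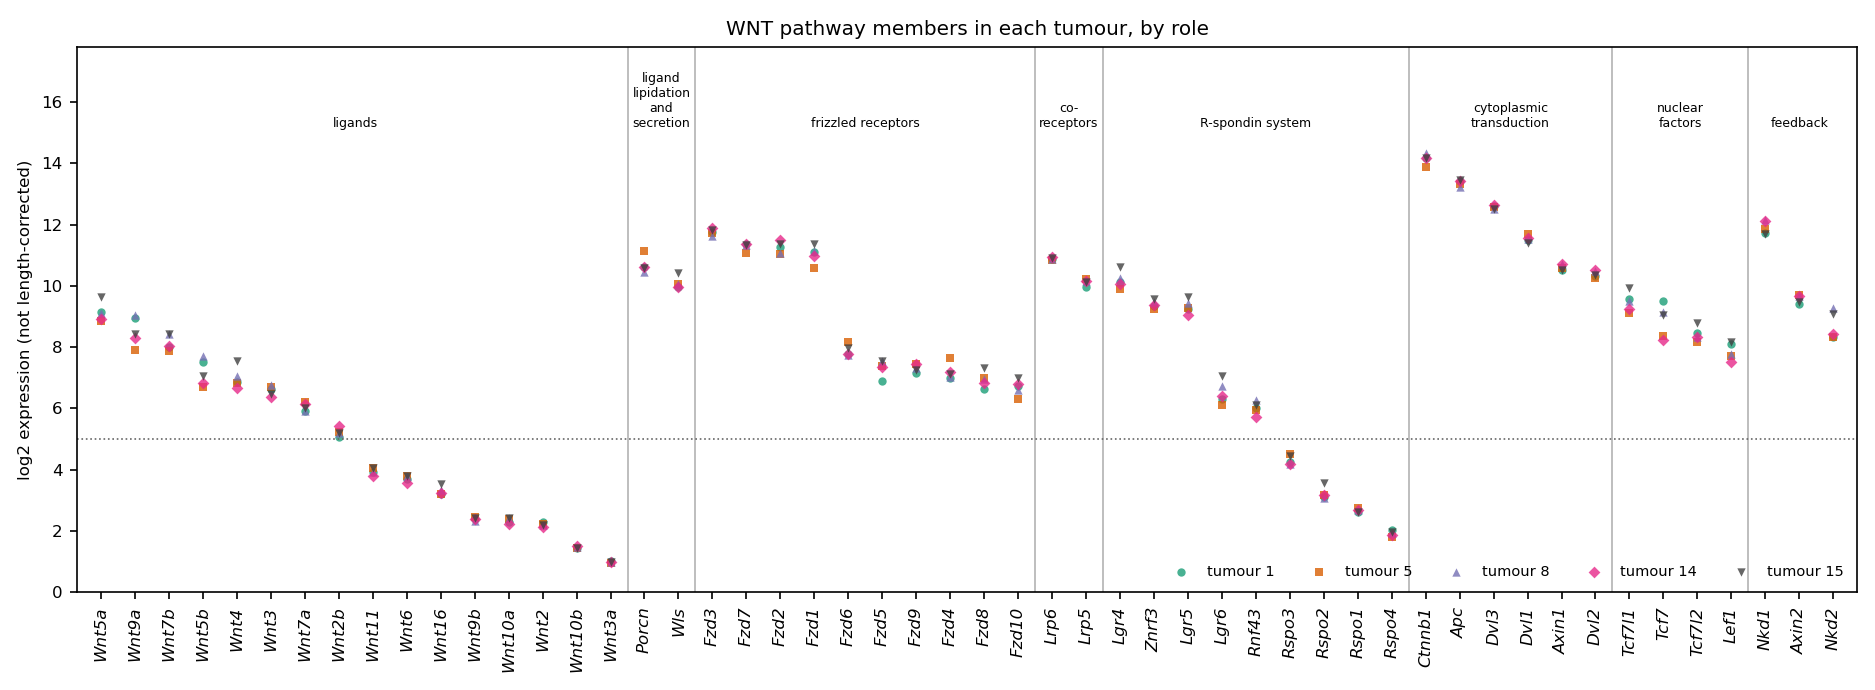
Log2 expression (not corrected for length, vertical axis) of the 52 members in each of the 5 tumours (symbols), grouped by role and ordered by mean within a group; the dotted line marks the floor of 5. Cytoplasmic genes lie between 10.26 and 14.33, whereas 8 of 16 ligands and 4 R-spondins lie below the dotted line in their mean.

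Of the 16 ligands, 8 had a mean of at least 5. Wnt5a, a ligand best known for beta-catenin-independent signalling, had the highest uncorrected values, at 9.16, 8.86, 9.11, 8.92 and 9.63 (9.14 ± 0.31). Wnt9a had 8.94, 7.91, 9.05, 8.30 and 8.41 (8.52 ± 0.47). Wnt7b, a ligand of brain development that also signals to brain vessels, had 8.00, 7.87, 8.44, 8.02 and 8.44 (8.16 ± 0.27). Per kb the order changed: Wnt9a led at 6.79, then Wnt5a at 6.17, Wnt7b at 5.86 and Wnt5b at 5.75, the 54.5th, 45.8th, 42.2nd and 40.9th percentiles of all genes with an exon length. Wnt9a thus lay near the middle of all genes and the other ligands below it.

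Wnt5b, the close relative of Wnt5a, had 7.50, 6.71, 7.69, 6.84 and 7.05 (7.16 ± 0.42). Wnt4 averaged 6.99 ± 0.34 and Wnt3 6.59 ± 0.16. Wnt7a, the close relative of Wnt7b, had 5.92, 6.20, 5.92, 6.15 and 6.02 (6.04 ± 0.13), and Wnt2b averaged 5.22 ± 0.12. The 8 ligands under the floor ran from Wnt11 (3.95 ± 0.11) and Wnt6 (3.72 ± 0.09) through Wnt16 (3.30 ± 0.14), Wnt9b (2.39 ± 0.05), Wnt10a (2.34 ± 0.08), Wnt2 (2.20 ± 0.06) and Wnt10b (1.45 ± 0.02) to Wnt3a, the lowest member, at 0.98 ± 0.03. The small SDs of these genes carry little information, since the regularised log pulls weak genes towards their mean.

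Neighbouring ligand genes on chromosome 11 were not expressed alike. On GRCm38, Wnt9a (chr11:59306928-59333552, plus strand) and Wnt3a (chr11:59248033-59290752, minus strand) lie 16.2 kb apart, head to head, and averaged 6.79 and -0.49 per kb. Wnt3 (chr11:103774150-103817957, plus strand) and Wnt9b (chr11:103727364-103749821, minus strand), also head to head 24.3 kb apart, averaged 4.97 and 0.21 per kb. Wnt6 and Wnt10a, 6.19 kb apart on the plus strand of chromosome 1, were both low, at 2.59 and 1.04 per kb.

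Both genes of ligand maturation were well expressed. Porcn, the acyltransferase that adds the lipid without which WNT proteins are not secreted, had 10.63, 11.13, 10.45, 10.61 and 10.57 (10.68 ± 0.26). Tumour 5 stood above the other 4, which lay between 10.45 and 10.63. Wls, which carries lipidated WNT to the cell surface, had 9.96, 10.05, 10.07, 9.97 and 10.41 (10.09 ± 0.18), with tumour 15 highest. Per kb Porcn stood at 9.09 and Wls at 6.96.

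The frizzled receptors fell into a high and a low set. Fzd3, an axon guidance and planar polarity receptor, had 11.77, 11.73, 11.64, 11.88 and 11.83 (11.77 ± 0.09). Fzd7 had 11.37, 11.09, 11.35, 11.37 and 11.35 (11.30 ± 0.12), and Fzd2 11.27, 11.03, 11.08, 11.50 and 11.35 (11.25 ± 0.19). Fzd1, of the same subfamily as Fzd2 and Fzd7, had 11.11, 10.58, 11.13, 10.96 and 11.37 (11.03 ± 0.29). All 4 lay above 10.5 in every tumour, and Fzd1, Fzd2 and Fzd7 were each lowest in tumour 5.

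The other 6 frizzleds lay below 8.2 in every tumour. Fzd6 had 7.78, 8.15, 7.75, 7.78 and 7.97 (7.89 ± 0.17). Fzd4, a receptor of the WNT and Norrin signals in brain endothelium, averaged 7.20 ± 0.26 and was highest in tumour 5, at 7.64 against at most 7.20 in the other 4. The endothelial marker median was also highest in tumour 5, at 10.13 against 9.49 to 9.72, and its part in the level of Fzd4 was not tested. Fzd5 averaged 7.34 ± 0.26, Fzd9 7.32 ± 0.12, Fzd8 6.94 ± 0.24 and Fzd10, the lowest before length was taken out, had 6.73, 6.31, 6.59, 6.79 and 6.98 (6.68 ± 0.25). Per kb the order was Fzd2 (9.37), Fzd7 (9.12), Fzd1 (8.96), Fzd3 (8.09), Fzd9 (6.13), Fzd6 (5.62), Fzd10 (4.98), Fzd5 (4.55), Fzd4 (4.45) and Fzd8 (4.36). The widest step in that order, between Fzd3 and Fzd9, separates the same high and low sets.

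The 2 co-receptors varied little. Lrp6 had 10.88, 10.83, 10.86, 10.94 and 10.91 (10.88 ± 0.04), the smallest range of the 40 members over the floor, and Lrp5 had 9.97, 10.22, 10.14, 10.14 and 10.12 (10.12 ± 0.09). Per kb the difference Lrp6 minus Lrp5 was 0.27 ± 0.11, above 0 in 5 of 5 tumours.

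R-spondins amplify WNT signals by binding LGR4, LGR5 or LGR6 and removing the ubiquitin ligases RNF43 and ZNRF3, which otherwise clear frizzleds from the membrane. The 4 R-spondin genes were all under the floor: Rspo3 averaged 4.32 ± 0.15, Rspo2 3.21 ± 0.19, Rspo1 2.67 ± 0.05 and Rspo4 1.92 ± 0.10. Their receptors were higher. Lgr4 had 10.13, 9.89, 10.26, 10.06 and 10.61 (10.19 ± 0.27), and Lgr5 9.24, 9.28, 9.43, 9.04 and 9.64 (9.33 ± 0.22).

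Lgr6 averaged 6.52 ± 0.37. Znrf3, itself a WNT target in other tissues, had 9.33, 9.23, 9.47, 9.36 and 9.55 (9.39 ± 0.13). Rnf43 had 5.99, 5.94, 6.27, 5.72 and 6.11 (6.01 ± 0.21). Lgr4, Lgr5, Lgr6 and Znrf3 were each highest in tumour 15, whereas Rnf43 was highest in tumour 8. Per kb Lgr4 stood at 7.63 and the highest R-spondin, Rspo3, at 2.69.

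The cytoplasmic core contained Ctnnb1, the member of highest level per kb (11.77). It encodes beta-catenin, both a junction protein and the pathway's effector, and had 14.19, 13.88, 14.33, 14.19 and 14.16 (14.15 ± 0.16). It stood at the 99.3rd percentile of all genes per kb. Apc, a scaffold of the destruction complex, had 13.41, 13.32, 13.23, 13.43 and 13.45 (13.37 ± 0.09). Axin1, the limiting scaffold of that complex, had 10.53, 10.58, 10.70, 10.71 and 10.53 (10.61 ± 0.09).

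Of the dishevelleds, which relay the signal from frizzled, Dvl3 had 12.62, 12.57, 12.52, 12.65 and 12.52 (12.57 ± 0.06). Dvl1 had 11.49, 11.70, 11.52, 11.58 and 11.41 (11.54 ± 0.11), and Dvl2 10.33, 10.26, 10.49, 10.52 and 10.35 (10.39 ± 0.11). Apart from Ctnnb1, each cytoplasmic gene ranged over at most 0.30 between tumours.

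The TCF/LEF factors were moderate in level, and their median varied more between tumours (SD 0.34) than that of the other 7 role groups. Tcf7l1, mainly a repressor in the absence of beta-catenin, had 9.56, 9.12, 9.49, 9.23 and 9.91 (9.46 ± 0.31). Tcf7 had 9.49, 8.37, 9.15, 8.23 and 9.03 (8.85 ± 0.54). Tumours 1, 8 and 15 were above 9 and tumours 5 and 14 below 8.5. Tcf7l2 had 8.46, 8.17, 8.33, 8.34 and 8.80 (8.42 ± 0.23), and Lef1, mainly an activator and itself a target in other tissues, had 8.10, 7.70, 7.78, 7.50 and 8.17 (7.85 ± 0.28). Per kb the levels were 7.49 for Tcf7l1, 7.46 for Tcf7, 5.29 for Tcf7l2 and 4.72 for Lef1.

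Feedback genes, induced by the pathway in many tissues and acting against it, were all over the floor. Nkd1, which binds dishevelled, had 11.74, 11.87, 12.15, 12.11 and 11.70 (11.91 ± 0.21) and stood at the 93.8th percentile per kb. Axin2, the usual readout of beta-catenin signalling, had 9.42, 9.69, 9.67, 9.67 and 9.47 (9.59 ± 0.13), at the 60.0th percentile per kb. Nkd2 had 8.33, 8.32, 9.29, 8.42 and 9.06 (8.68 ± 0.46). Tumours 8 and 15 lay over 0.6 above the other 3 at Nkd2, whereas at Nkd1 tumour 15 was the lowest. With no sample in which WNT signalling is known to be on or off, these levels cannot be read as pathway activity.

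Closely related members were then compared within each tumour, per kb, as the first gene minus the second. Of 21 pairs listed, 20 were compared; Wnt10a and Wnt10b were both under the floor. In 18 of the 20 pairs the difference had 1 sign in all 5 tumours. Flipping signs in every way (an exact permutation test, two-sided) gave p = 0.0625 for each, adjusted 0.0694 over 20 pairs, the smallest p that 5 tumours allow, so none could pass 0.05. Pairs of other genes were not compared. The median SD between tumours was 0.11 over all genes over the floor, so genes much further apart in level tend to keep 1 sign. The sign count is therefore a description only, and the size of each difference is what is reported.

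Among receptors and intracellular genes the steps were as follows. Tcf7l1 exceeded Tcf7l2 by 2.21 ± 0.12, and Lef1 minus Tcf7 was -2.75 ± 0.35. Nkd1 exceeded Nkd2 by 3.31 ± 0.46, Znrf3 exceeded Rnf43 by 3.11 ± 0.17, and Fzd3 exceeded Fzd6 by 2.48 ± 0.19. Dvl3 exceeded Dvl2 by 2.16 ± 0.12 and Dvl1 exceeded Dvl2 by 1.48 ± 0.17. Axin2 minus Axin1 was -1.55 ± 0.09, with values between -1.64 and -1.41, and Lgr5 minus Lgr4 was -1.67 ± 0.16. These gaps exceeded their SD between tumours several times over, but some depend on the gene model: with the longest transcript as the length, Tcf7l1 minus Tcf7l2 was 1.33, Lef1 minus Tcf7 -1.57 and Lgr5 minus Lgr4 -0.79.

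Other pairs were close. Fzd1 minus Fzd2 was -0.41 ± 0.27, Fzd2 minus Fzd7 0.25 ± 0.14 and Fzd5 minus Fzd8 0.19 ± 0.15, each with 1 sign throughout, and Fzd9 minus Fzd10 was 1.15 ± 0.33. Without the length correction Fzd2 minus Fzd7 turned to -0.06. Fzd1 minus Fzd7 was -0.16 ± 0.20, between -0.40 and 0.13 and below 0 in 4 of 5 tumours (p = 0.188 by the exact permutation test, adjusted 0.188).

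Among ligands, Wnt9a exceeded Wnt9b by 6.57 ± 0.51, Wnt3 exceeded Wnt3a by 5.45 ± 0.17 and Wnt2b exceeded Wnt2 by 2.13 ± 0.18. Wnt9b, Wnt3a and Wnt2 were under the floor, where the transformation pulls values towards the gene's mean. The SDs of these differences therefore carry little information about the second gene. Wnt7a minus Wnt7b was -1.49 ± 0.36. Wnt5a minus Wnt5b was 0.42 ± 0.46, between -0.14 in tumour 8 and 1.03 in tumour 15, above 0 in 4 of 5 tumours (p = 0.188 by the exact permutation test, adjusted 0.188), and 1.98 without the length correction. This pair had no fixed order between tumours.

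**Figure D2:**
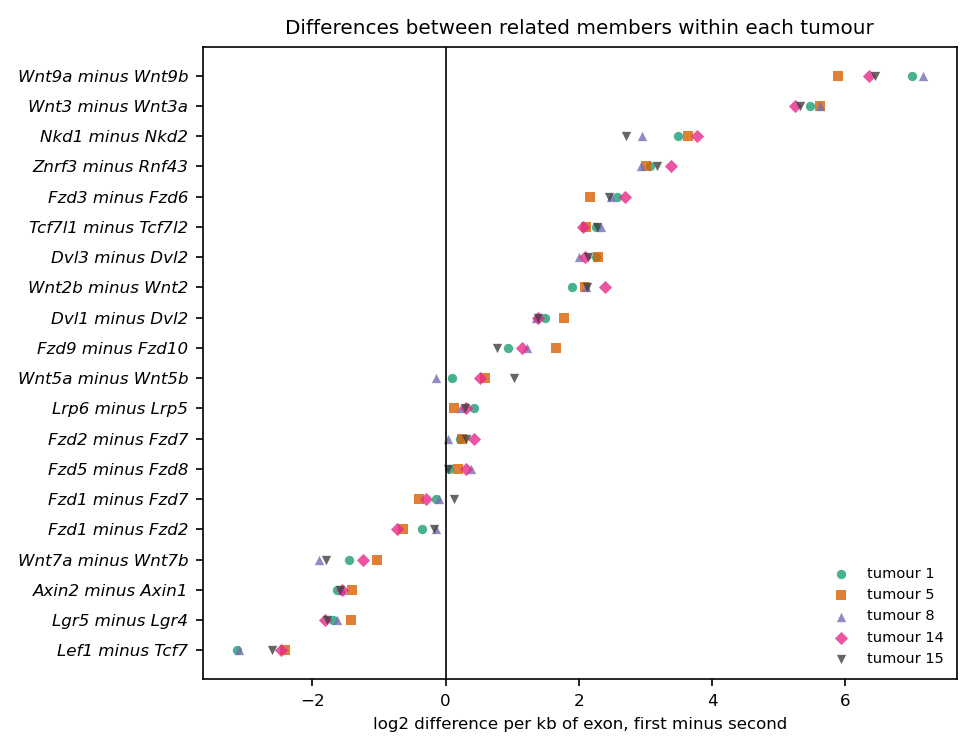
Difference in log2 expression per kb of exon (horizontal axis, first gene minus second) for the 20 pairs of related members, with 1 symbol for each of the 5 tumours; the vertical line marks 0. The symbols of 18 pairs lie on 1 side of 0, and those of Wnt5a minus Wnt5b and Fzd1 minus Fzd7 lie on both.

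Few members varied strongly between tumours. Among the 40 members over the floor, 2 (5%) ranged over 2-fold between the highest and lowest tumour, near the 3.79% of all genes with a mean of at least 5. These were Tcf7, with a range of 1.26 on the log2 scale, and Wnt9a, with 1.14 (2.21-fold). Just below the threshold stood Wnt5b (1.98-fold), Nkd2 (1.96-fold), Lgr6 (1.90-fold) and Wnt4 (1.85-fold). Both calls rest on 1 tumour: without tumour 1 the range of Tcf7 was 0.91, and without tumour 5 that of Wnt9a was 0.75.

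Moderate differences were more common. A range over 1.5-fold was found for 18 of 40 members (45%), against 14.7% of all genes over the floor, and the median range was 0.51 for members and 0.27 for all genes. The share depended on level, by a split chosen after the data were seen. It was 15 of 24 members (62.5%), against 19.5% of all genes, with means of 5 to 10, and 3 of 16 members (18.8%), against 6.91%, with means of at least 10. Without tumour 15 the count was 9 of 40 (22.5%), against 10.5% of all genes, and without tumour 5 it was 12 of 40 (30%), against 8.89%. The members were chosen by name and share pathway and cell types, so these shares describe the list and are not a test of it.

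**Figure D3:**
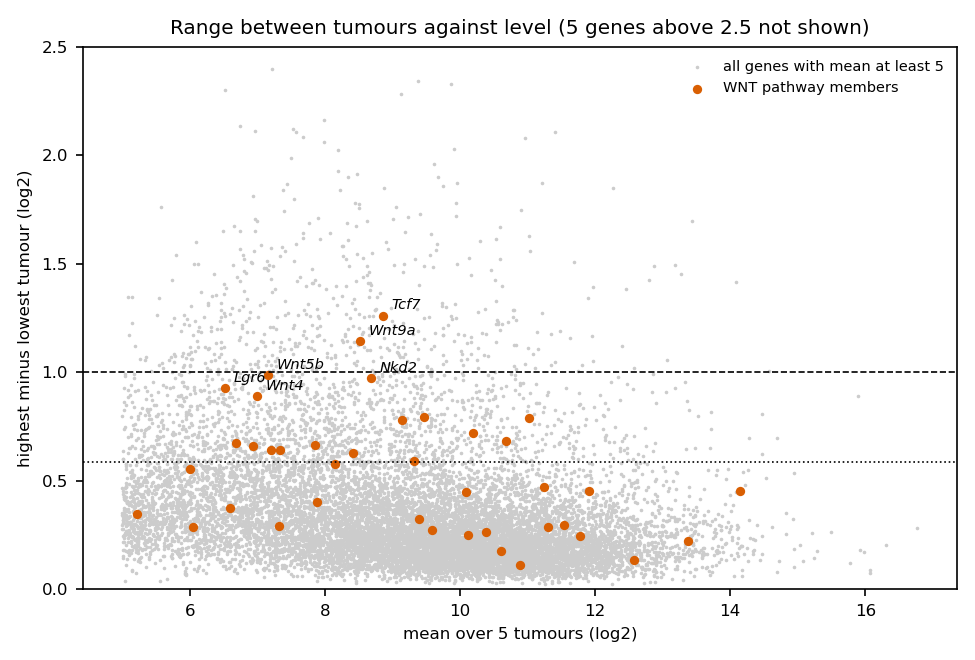
Range between the highest and lowest tumour (log2, vertical axis) against the mean over 5 tumours (log2, horizontal axis) for all genes with a mean of at least 5 (grey; 5 genes above 2.5 lie outside the plot) and the 40 members (orange). The dashed line is 2-fold and the dotted line 1.5-fold; Tcf7 and Wnt9a lie above the dashed line.

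Tcf7, Wnt9a and Wnt5b, the 3 members of widest range, had a similar order of tumours: tumours 1 and 8 were the highest and tumours 5 and 14 the lowest at each. Wnt9a was 8.94 in tumour 1 and 9.05 in tumour 8, against 7.91 in tumour 5 and 8.30 in tumour 14. Tcf7 is a T cell factor, and of 7 T cell markers chosen after its values were seen, 2 were in the table: Cd3g averaged 0.49 ± 0.04 and Cd4, which microglia can also express, 6.20 ± 0.27. Pdgfra, an oligodendrocyte precursor marker also picked out after its values were seen, had 12.90, 12.38, 12.96, 12.54 and 12.58 and so ordered the tumours as Wnt9a and Wnt5b did. Of the 5 markers of those cells, 4 were highest in tumour 1 and 1 in tumour 8, and 3 were lowest in tumour 5 and 2 in tumour 8. Their list median did not share that order: it was 11.87, 11.48, 11.28, 11.41 and 11.70. It was thus lowest in tumour 8, where Wnt9a and Wnt5b were highest. The part of T cells or oligodendrocyte precursors in these levels was not tested.

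Sequence around annotated starts of these 3 genes, chosen after their values were seen, is shown because the genes ranged most and had a similar order of tumours. An annotated start need not be the promoter used in these cells. The Tcf7 window printed holds an ATG before its annotated start, with no stop codon in that frame up to the window's end. Each window runs from 250 bases before the annotated start to 50 after it, 5′ to 3′ on the gene's strand (RefSeq, GRCm38.p6). Capitals mark a match to the TCF/LEF core ATCAAAG on either strand; the GLI motif GACCACCCA was also searched on both strands, and the 2 motifs share no overlap here. The windows are Tcf7 at chr11:52282965-52283264 (minus strand, 76.3% G or C), Wnt9a at chr11:59306680-59306979 (plus strand, 83.3%) and the third annotated start of Wnt5b at chr6:119449337-119449636 (minus strand, 55%).
Tcf7: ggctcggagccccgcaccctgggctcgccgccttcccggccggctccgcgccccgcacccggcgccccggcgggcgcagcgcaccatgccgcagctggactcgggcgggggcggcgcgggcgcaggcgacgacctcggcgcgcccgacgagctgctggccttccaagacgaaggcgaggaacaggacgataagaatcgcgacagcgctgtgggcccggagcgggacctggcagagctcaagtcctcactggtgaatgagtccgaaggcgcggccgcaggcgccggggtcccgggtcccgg
Wnt9a: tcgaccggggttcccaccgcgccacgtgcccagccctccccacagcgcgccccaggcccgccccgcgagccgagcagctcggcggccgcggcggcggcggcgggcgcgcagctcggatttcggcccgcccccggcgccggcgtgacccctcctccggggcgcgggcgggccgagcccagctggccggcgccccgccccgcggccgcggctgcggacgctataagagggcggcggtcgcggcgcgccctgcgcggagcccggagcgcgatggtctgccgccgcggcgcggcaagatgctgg
Wnt5b: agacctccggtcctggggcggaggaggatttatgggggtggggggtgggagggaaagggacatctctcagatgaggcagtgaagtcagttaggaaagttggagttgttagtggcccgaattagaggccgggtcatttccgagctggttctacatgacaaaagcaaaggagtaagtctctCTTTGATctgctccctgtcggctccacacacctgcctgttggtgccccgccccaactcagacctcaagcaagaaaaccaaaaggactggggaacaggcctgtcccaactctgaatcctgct

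The Wnt5b window printed was chosen because it holds 1 TCF/LEF match, on the opposite strand, beginning at position -71 from the start. The other 2 Wnt5b windows (78% and 53% G or C), the second Tcf7 window (64.3%) and the Tcf7 and Wnt9a windows printed hold none. Of 46 windows annotated to 36 of the 52 members, 2 (4.35%) held that core, those of Wnt11 and Wnt5b, against 3.73% of all 32851 windows. The GLI motif was in 0 of the 46, against 0.253% of all windows. A match or its absence is a description of the letters and says nothing of binding or of the promoters in use.

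Members did not share 1 pattern between tumours. Of the 40 members, 16 (40%) were highest in tumour 15, against 21.4% of all genes over the floor, and 17 (42.5%) were lowest in tumour 5, against 24.6%. The 16 were Wnt4, Wnt5a, Wnt7b, Wls, Fzd1, Fzd5, Fzd8, Fzd10, Lgr4, Lgr5, Lgr6, Znrf3, Apc, Tcf7l1, Tcf7l2 and Lef1, and so include 3 of the 4 TCF/LEF factors and every LGR receptor. Tumour 15 had 2 members at their lowest, Dvl1 and Nkd1 (5%, against 22.9%). Wnt4, a secreted ligand, stood at 7.54 in tumour 15, against 6.65 to 7.05 in the other 4.

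Lowest in tumour 5 were Ctnnb1, Dvl2, Lrp6, Fzd1, Fzd2, Fzd7, Fzd10, Lgr4, Lgr6, Znrf3, Nkd2, Tcf7l1, Tcf7l2, Wnt5a, Wnt5b, Wnt7b and Wnt9a. Highest there were 8 members (20%, against 24.1%): Porcn, Axin2, Dvl1, Lrp5, Fzd4, Fzd6, Fzd9 and Wnt7a. Set against the median of the other 4 tumours, tumour 5 was lower at 28 of the 40 members and higher at 12. Of all genes over the floor, 48.1% were higher there. The median absolute difference was 0.21 for members, against 0.10 over all genes over the floor. Tumour 15 was higher at 24 members and lower at 16, and 47.6% of all genes over the floor were higher there. Its median absolute difference was 0.20, against 0.10 over all genes. Tumour 8 was also higher at 24 and lower at 16 (50.9% of all genes higher). Tumour 1 was higher at 16 (52.0%) and tumour 14 at 19 (50.2%). The median absolute difference was 0.11 in tumour 1 (all genes 0.09), 0.16 in tumour 8 (0.10) and 0.15 in tumour 14 (0.08). Members thus exceeded all genes in each tumour. In tumour 5 the lowest differences were at Wnt9a (-0.77), Tcf7 (-0.72), Wnt5b (-0.57) and Fzd1 (-0.54), and the highest at Fzd4 (0.57) and Porcn (0.54).

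The remaining tumours held fewer extremes. Tumour 1 had the highest value of 1 member, Tcf7 (2.5%, against 20.2%), and the lowest of 9 (22.5%, against 16.9%). Tumour 8 had the highest of 7 (17.5%, against 18.5%), among them Wnt9a, Wnt5b, Nkd1, Nkd2 and Ctnnb1, and the lowest of 6 (15%, against 22.6%). Tumour 14 had the highest of 8 (20%, against 15.8%), among them Fzd2, Fzd3, Fzd7, Dvl2, Dvl3 and Axin1, and the lowest of 6 (15%, against 13%), among them Tcf7 and Lef1.

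**Figure D4:**
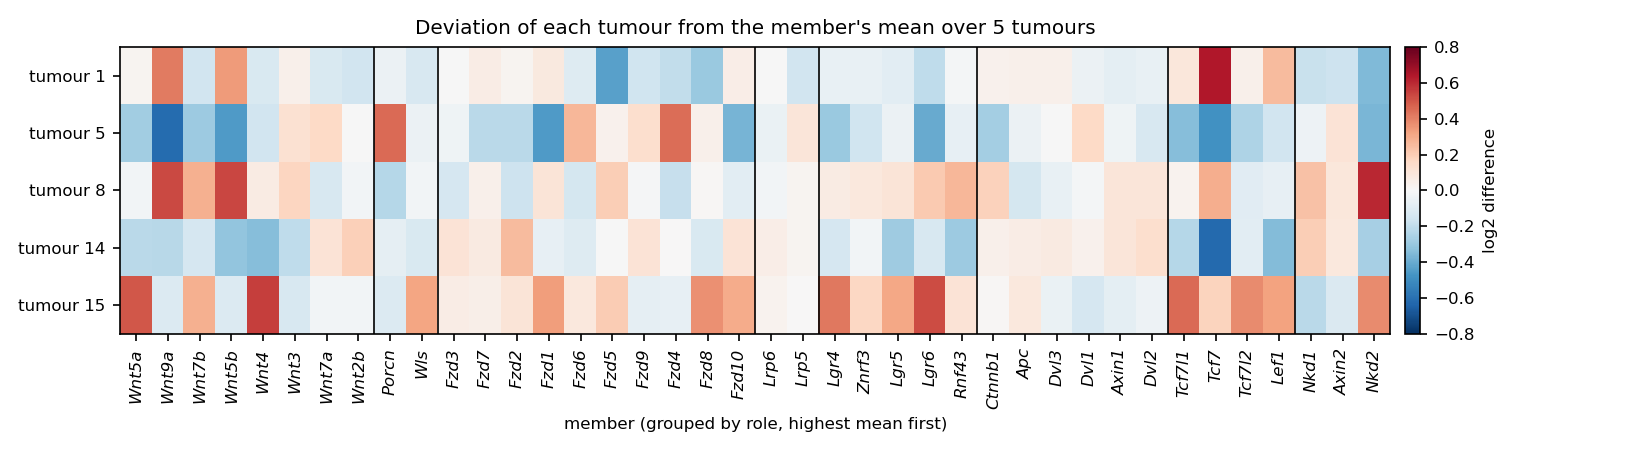
Colour shows each tumour's log2 value minus the member's mean over 5 tumours (rows are tumours, columns the 40 members over the floor, grouped by role from ligands at the left to feedback genes at the right). Tumour 15 is red at the LGR receptors and Tcf7l1, tumour 5 blue at Wnt9a, Fzd1 and Lgr6, and the cytoplasmic genes are pale throughout.

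Markers of granule progenitors and of other cells also differed between tumours. Atoh1 had 8.00, 8.17, 8.27, 9.18 and 9.49 and was highest in tumour 15, whereas 3 of the 5 granule progenitor markers were lowest there. In tumour 5 the medians of mature granule neuron, oligodendrocyte, microglia and endothelial markers were 8.73, 12.12, 10.62 and 10.13, against at most 7.89, 11.65, 10.08 and 9.72 in the other 4 tumours. The mature granule list was split: Gabra6, Grin2c and Gabrd were highest in tumour 5, and the more abundant Rbfox3 and Cbln1 in tumour 15. In tumour 15 the astrocyte and Bergmann glia median was 12.36, against 11.73 to 12.16, and the pericyte and fibroblast median 11.59, against 11.12 to 11.50; single astrocyte markers were mostly highest in tumour 5 (4 of 6). Their part in the WNT pathway levels was not tested.

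**Figure D5:**
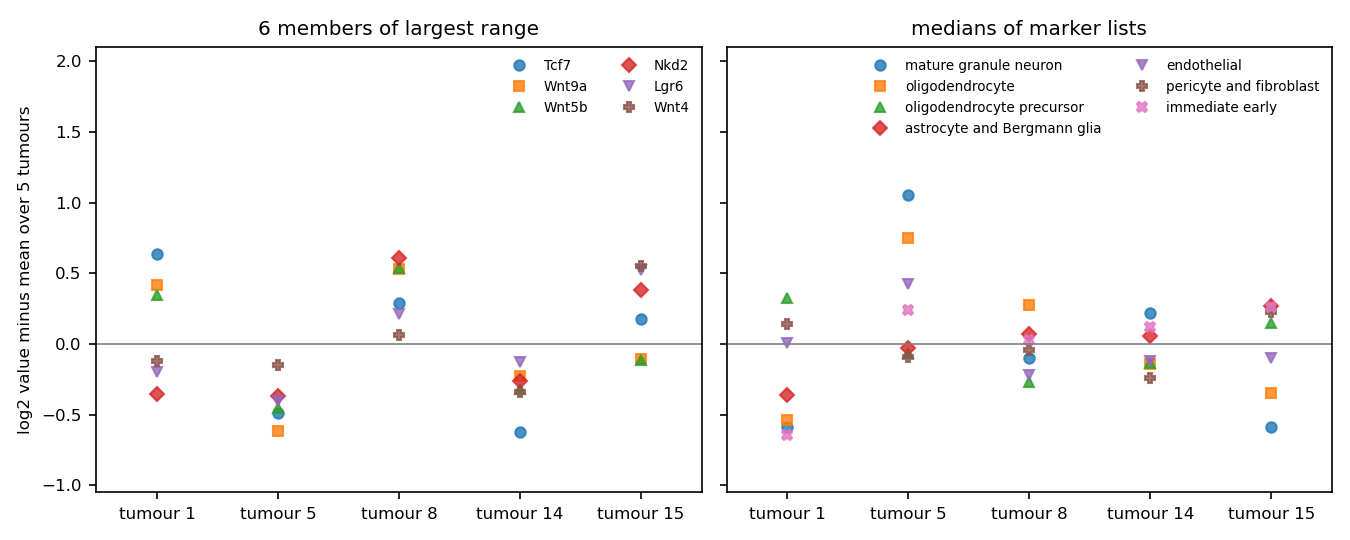
Log2 value minus its mean over 5 tumours (vertical axis) in each tumour, for the 6 members of widest range (left) and for the medians of 7 marker lists (right). Tcf7, Wnt9a and Wnt5b lie above 0 in tumours 1 and 8 and below 0 in tumours 5 and 14, and the mature granule neuron and oligodendrocyte medians are highest in tumour 5.

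Other genes of the pathway gave the setting. Of 19 secreted and membrane antagonists listed, 18 were in the table and 15 had a mean of at least 5, with a list median of 7.94 ± 0.23. Sfrp1, which sequesters WNT, averaged 13.83 ± 0.13 (11.70 per kb) and Draxin, an antagonist and axon repellent, 12.41 ± 0.50 (10.03 per kb), the highest 2 of the list per kb. Dkk1, which blocks LRP5 and LRP6, was the lowest at 1.53 ± 0.07 (0.25 per kb). Those ranging over 2-fold were 4 of the 15: Sfrp5 had 9.10, 6.94, 8.28, 7.33 and 8.28, Dkk2 8.15, 7.34, 8.41, 8.03 and 9.18, Wif1 10.76, 9.87, 10.71, 10.16 and 11.20, and Draxin 12.21, 11.96, 12.01, 12.77 and 13.08. Sfrp5, like Tcf7, was highest in tumour 1, and both stood lower in tumours 5 and 14 than in the other 3. Of all genes over the floor, 3.79% ranged over 2-fold. Without tumour 15 the count of antagonists was 2, against 2.33% of all genes.

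The 14 genes of the destruction complex outside the members had a median of 11.56 ± 0.06 and 0 of them ranged over 2-fold. The kinase genes Csnk1e and Csnk1a1 averaged 12.91 ± 0.05 (10.19 per kb) and 12.87 ± 0.02 (9.47 per kb), and the APC partner Amer1 9.85 ± 0.08 (6.77 per kb). The 10 nuclear cofactors had a median of 10.62 ± 0.05, also with 0 over 2-fold. The corepressor gene Tle3 averaged 12.09 ± 0.13 (8.54 per kb) and the beta-catenin partner Bcl9l 11.68 ± 0.11 (8.68 per kb). Cby1, which binds beta-catenin, had the lowest uncorrected mean of that list, 9.40 ± 0.04, and the highest per kb, 9.11. These counts are plain ranges, with no test. With 3.79% of all genes ranging over 2-fold, 0 in lists this short is not a result about them.

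The 16 planar polarity and alternative receptor genes had a median of 9.97 ± 0.11. Celsr2 and Celsr3, atypical cadherins of planar polarity, averaged 13.67 ± 0.14 (10.15 per kb) and 12.86 ± 0.10 (9.26 per kb), and Prickle3 was lowest at 6.37 ± 0.20 (4.07 per kb). Celsr1 was the 1 gene of 16 ranging over 2-fold (all genes 3.79%), at 7.98, 7.94, 8.33, 8.65 and 9.16. Without tumour 15 the count was 0 (all genes 2.33%). Of 7 target genes outside the members, 5 had a mean of at least 5 and the list median was 8.32 ± 0.13. The cyclin gene Ccnd1, also a hedgehog target, averaged 13.18 ± 0.35 (10.94 per kb), Myc 9.75 ± 0.11 (8.31 per kb), and Ascl2, an intestinal stem cell target, 3.53 ± 0.07 (2.83 per kb). Cd44, an adhesion receptor, had 9.13, 8.34, 9.11, 8.66 and 9.64, the 1 target of those 5 ranging over 2-fold (all genes 3.79%). Without tumour 5 or without tumour 15 the count was 0 (all genes 1.82% and 2.33%).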

How the data were processed

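Expression was measured by strand-specific mRNA sequencing in 5 libraries of 1 group, per the labels. The authors deposited 1 table of log2 values. The table's short name and the tools named point to the regularised log of DESeq2, which is not stated outright. STAR 2.4.1, featureCounts from Subread 1.4.6, DESeq2 and the builds mm10 and GRCm38 are named in the submitters' processing notes; for annotation, strand setting and gene filter nothing is given in the sources used here. Of 7 columns, 2 match no sample and were not used, although they may have entered the transformation. Depth is unknown.

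Exon lengths are the union of GENCODE M21 exons (GRCm38), found for all 52 members and 97.5% of symbols. Counts of variable genes used a mean of at least 5. Related pairs were tested by exact permutation of signs over tumours (two-sided, Benjamini-Hochberg adjustment). The scripts were checked on simulated data. Values in every tumour were given for members ranging over 2-fold, the 2 highest and 1 lowest of each role group (by mean and SD where the mean was under 5), and pairs with a mean of at least 8; Draxin, Sfrp5, Dkk2, Wif1, Celsr1 and Cd44 were named by range. Other members in the text are named to account for the list. Members and lists were chosen with earlier results of these data known. Alternatives were leaving out each tumour, floors, column centring, range size and length model. Python 3.11.15, numpy 2.4.6 and pandas 2.3.3 were used.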

Additional observations from a re-analysis of the deposited data

Results flagged for a closer look

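In 4 of the 52 members 1 tumour stood far from the other 4, judged by its gap to the nearest other tumour as a share of the whole range. For normally distributed values chance flags about 1 in 20 such groups. The share over all genes was not computed, so these 4 are not a result about the members. Fzd7 was 11.09 in tumour 5, below the other 4. Porcn was 11.13 in tumour 5 and Wls 10.41 in tumour 15, each above the other 4. Rspo2 was 3.55 in tumour 15, at a level where the transformation pulls values together. None of the 20 pair differences and none of the 9 medians over members was set apart in this way.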

How the results depend on the processing

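Depth is not known, weak genes are compressed by the transformation, and no sample of another condition was at hand. No paired analysis was possible because the labels give 1 group, so no groups share replicate numbers; the gene pairs are differences within a tumour. The 20 pair differences kept their direction under both length alternatives and each omission, except Fzd2 minus Fzd7, which was -0.0589 with no length correction. For the 18 pairs with 1 sign in all 5 tumours, leaving out a tumour could not change the direction.

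With the mean over members in place of the median, the level was 7.68 for all members, 4.88 for ligands, 8.87 for frizzleds and 10.06 for feedback genes. Over 1.5-fold the count of ranging members was 18. With no filter on the mean, members highest in tumour 1 numbered 4, lowest in tumour 14 11 and lowest in tumour 15 4; with a floor of 7, lowest in tumour 14 numbered 3, and with column medians subtracted, lowest in tumour 15 numbered 4. In that last setting 3 members ranged over 2-fold, Wnt5b being added. With no filter all 52 members are counted. With no filter, a floor of 7 or centred columns the share over all genes was not computed. The counts in those settings are therefore not a result about the members. For these shifts the cause was not tested.

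When each tumour was left out in turn, members over 2-fold numbered 1 to 2, against 1.82% to 3.66% of all genes, and over 1.5-fold 9 to 17, against 8.89% to 13.7%. Members highest in tumour 1 numbered 2 to 5, in tumour 8 8 to 16 and in tumour 14 8 to 13. Members lowest in tumour 1 numbered 10 to 14, in tumour 8 6 to 11, in tumour 14 6 to 12 and in tumour 15 3 to 7. A tumour that is highest or lowest stays so when another is dropped, so these counts grow by construction. Without tumour 5, 14 members (35%, against 22.1% of all genes) were lowest in tumour 1, 11 (27.5%, against 29.4%) in tumour 8 and 12 (30%, against 19.6%) in tumour 14, and 13 (32.5%, against 21.5%) were highest in tumour 14. Without tumour 15, 16 (40%, against 23.3%) were highest in tumour 8 and 5 (against 28.1% of all genes) in tumour 1, and without tumour 1, 7 (17.5%, against 29.2%) were lowest in tumour 15. Members highest in tumour 15 numbered 16 to 19, against 23.5% to 28.7% of all genes, and lowest in tumour 5 17 to 21, against 27.9% to 30.7%. Genes over 2-fold numbered 0 to 1 among targets, 0 to 1 among planar polarity genes and 2 to 4 among antagonists. The share of all genes was again 1.82% to 3.66%. The 1.5-fold omissions and the split of that share by level were chosen after seeing the data.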
